A study of Mus musculus with 8 samples.

Results

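The 10 genes described here are the core circadian clock genes Per1, Per2, Per3, Cry1, Cry2, Arntl, Clock, Nr1d1 and Nr1d2 and the direct clock output Dbp, taken by symbol from 23282 genes of a read count table. Each of the 10 was found in the table and passed the filter on low counts, which kept 13005 genes. The counts come from RNA sequencing of hematopoietic stem and progenitor cells, the blood-forming cells of the bone marrow, sorted at 2000 cells per sample. The labels give 4 samples as Hdc-/-, mice of C57BL/6 background without a working gene for histidine decarboxylase, the enzyme of histamine synthesis, and 4 as C57BL/6 wild type (WT). The comparison asks how expression in these cells differs between the genotypes. The sources used here give neither the hour of the day at which marrow was taken, nor the age and sex of the mice, nor the sorting markers. They also do not say whether samples of a group were separate mice, so the spread behind each p-value may be technical.

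The clock is a feedback loop of transcription that runs in most cells. The proteins CLOCK and BMAL1, the product of Arntl, pair up and bind E-box sequences, where they turn on the Per, Cry, Nr1d and Dbp genes. PER and CRY proteins then repress CLOCK and BMAL1, NR1D proteins (also called REV-ERB) repress Arntl at ROR elements, and DBP activates genes through D-boxes. As a result the RNA of most of these genes rises and falls over the day, with Arntl RNA peaking at another time than Per, Nr1d and Dbp RNA. In mouse marrow, the release of stem and progenitor cells into the blood is known to follow the time of day.

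One fact bears on the labels. Hdc itself was at 44.3, 42.7, 42.2 and 42.9 CPM (reads scaled to library size) in the libraries labelled Hdc-/-, against 15.96, 12.2, 14.5 and 14.7 CPM in WT libraries 1 to 4, so the libraries labelled Hdc-/- had more of it, against their label (log2 fold change 1.58, SE 0.11, adjusted p = 6.42e-08). Whether reads of an altered allele enter this count is not known, and directions below rest on the labels. Values of the libraries labelled Hdc-/- are given throughout in the order 1, 2, 3 and a last one whose column carries no sample number, called the unnumbered library. Totals ran from 16322738 to 19775106 reads per library. On principal components of all genes the first (35.4% of the variance) separated the groups and the second (15.0%) set WT 1 apart from the other libraries. All 10 stem and progenitor markers looked at had reads in every library, among them Kit and Cd34, with Kit at 1481 ± 53.5 CPM under the Hdc-/- label and 1190 ± 258 CPM in WT, and Cd34 at 1365 ± 23.4 CPM under the Hdc-/- label and 1370 ± 36.7 CPM in WT (SD, n = 4 each).

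The clock genes were expressed in all 8 libraries, and only Per1 differed between the groups past the threshold. Of the 10 genes, 1 was higher in the libraries labelled Hdc-/- and 0 were lower at an adjusted p under 0.05 in edgeR's quasi-likelihood test. Over all 13005 genes tested, 4.76% passed, 2.05% as higher and 2.71% as lower. DESeq2 and limma-voom also called Per1 and no other clock gene. At an unadjusted p under 0.05, edgeR gave 3 of the 10 (Per1, Per2 and Nr1d2), all higher, against 18.7% of all genes. The median log2 fold change of the 10 was 0.17, against 0.0041 over all genes tested, and 8 of the 10 were above 0, against 50.9% of all genes. In none of the 10 were the groups fully apart, whereas 12.5% of all genes had groups that did not overlap, 5.64% with the libraries labelled Hdc-/- higher and 6.88% with them lower. Without WT 1 the calls were the same in number, 1 higher and 0 lower.

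**Figure D1:**
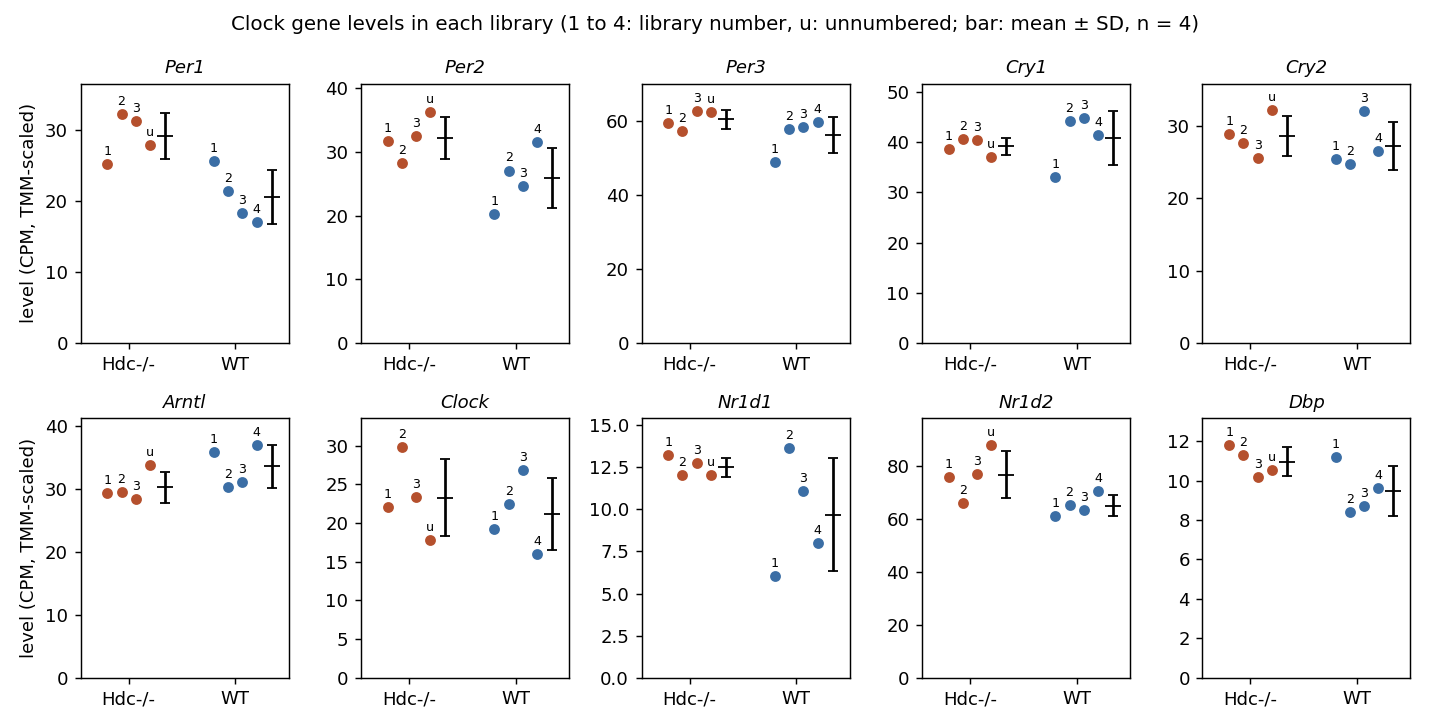
Level of each clock gene in CPM after TMM scaling (vertical axis, from 0) in the 4 libraries labelled Hdc-/- (left, orange) and the 4 WT libraries (right, blue). Points carry the library number, u marks the unnumbered library, and bars are mean ± SD. Per1 stands highest against WT, with 29.1 CPM in the libraries labelled Hdc-/-, against 20.6 CPM in WT, and 1 library of each group meets at about 25 CPM.

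Per genes encode the repressors whose build-up times the loop, and Per1 is also known to be switched on quickly by cAMP and by glucocorticoid hormones. Per1 was at 25.1, 32.3, 31.3 and 27.9 CPM in the libraries labelled Hdc-/-, against 25.6, 21.4, 18.3 and 17.1 CPM in WT libraries 1 to 4. Library 1 labelled Hdc-/- lay just under WT 1, and the other 3 lay above every WT library. Per1 averaged 29.1 ± 3.28 CPM under the Hdc-/- label, against 20.6 ± 3.797 CPM in WT (SD, n = 4 each). Per1 rose by 0.50 on the log2 scale (SE 0.13, 95% interval 0.22 to 0.78, adjusted p = 0.0403), a fold of 1.42, and ranked 562nd by p among all genes tested. The call was narrow. Among libraries labelled Hdc-/-, leaving out number 2, number 3 or the unnumbered one ended it (adjusted p = 0.134, 0.139 and 0.0776), as did leaving out WT 2, WT 3 or WT 4 (adjusted p = 0.0832, 0.100 and 0.118). Without WT 1, whose Per1 level was the highest of WT, the log2 fold change was 0.62 (adjusted p = 0.00451).

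Promoters of Per1 and of Per3 and Nr1d2 are shown as examples of windows that hold letters of the E-box, ROR element, D-box or cAMP element. Windows of Cry1, Cry2, Nr1d1, Arntl and Clock held matches too and are not shown. Whether a match bears on the level of a gene was not tested. Sequences are from RefSeq on GRCm38.p6, 250 bases before to 50 after a transcription start, read 5′ to 3′ along the gene. Capitals mark matches on either strand to the E-box CACGTG, the related box CACGTT, the short cAMP response element TGACG, the ROR element core AGGTCA and the D-box. Per1 has 2 starts in the table, both on the plus strand of chromosome 11. The upstream one, chr11:69098699-69098998, holds an E-box at -166 from the start, TGACG at -246 and the ROR core, as its reverse complement, at -137:
Per1 upstream start: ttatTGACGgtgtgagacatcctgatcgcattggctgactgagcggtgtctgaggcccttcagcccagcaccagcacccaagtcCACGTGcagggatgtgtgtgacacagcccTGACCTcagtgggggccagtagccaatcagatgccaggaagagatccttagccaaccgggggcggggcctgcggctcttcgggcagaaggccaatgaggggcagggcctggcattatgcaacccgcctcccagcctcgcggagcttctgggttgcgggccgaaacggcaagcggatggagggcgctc
The downstream one, chr11:69099902-69100201, holds TGACG at -132:
Per1 downstream start: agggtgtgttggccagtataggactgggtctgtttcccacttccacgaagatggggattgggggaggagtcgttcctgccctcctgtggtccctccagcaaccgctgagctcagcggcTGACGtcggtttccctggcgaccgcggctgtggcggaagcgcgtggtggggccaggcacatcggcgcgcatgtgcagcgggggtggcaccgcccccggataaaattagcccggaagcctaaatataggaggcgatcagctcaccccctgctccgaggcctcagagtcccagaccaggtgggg
Per3, on the minus strand at chr4:151044616-151044915, holds a pair of D-boxes, and Nr1d2, on the minus strand at chr14:18239057-18239356, holds an AGGTCA core at -77:
Per3: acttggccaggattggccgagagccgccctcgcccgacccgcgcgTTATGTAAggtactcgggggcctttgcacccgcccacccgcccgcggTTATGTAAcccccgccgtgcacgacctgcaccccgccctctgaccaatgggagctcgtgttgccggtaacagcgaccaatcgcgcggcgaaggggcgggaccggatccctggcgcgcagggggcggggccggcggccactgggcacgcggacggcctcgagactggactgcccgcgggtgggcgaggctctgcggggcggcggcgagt
Nr1d2: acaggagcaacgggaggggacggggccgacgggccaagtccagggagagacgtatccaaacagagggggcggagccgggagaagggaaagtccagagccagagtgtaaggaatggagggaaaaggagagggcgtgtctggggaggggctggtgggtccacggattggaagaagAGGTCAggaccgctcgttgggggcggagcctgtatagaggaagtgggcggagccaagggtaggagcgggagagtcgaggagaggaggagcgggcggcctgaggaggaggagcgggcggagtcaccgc
The promoter table matched 9 of the 10 genes, not Per2, with 13 promoters. The E-box CACGTG was in 2 of the 13 (Per1 and Cry1), against 7.15% of 32851 promoters of all genes, and CACGTT was in 3 (Cry1, Cry2 and Nr1d1), against 4.68%. The short element TGACG was in 4 (both of Per1, and Cry1 and Cry2), against 20.8%, and the full element TGACGTCA in 0, against 1.79%. AGGTCA was in 4 (1 each of Arntl, Clock, Nr1d2 and Per1), against 16.3%, and the D-box (TTATGTAA, TTACATAA, TTATATAA or TTACGTAA) in 1, that of Per3, against 1.59%. TGACGTCA contains TGACG. A match describes the letters in these windows and is not a binding site, and elements farther from the start were not searched.

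Per2, whose product pairs with PER1 and CRY in the repressor complex, was at 31.7, 28.3, 32.5 and 36.2 CPM in the libraries labelled Hdc-/-, against 20.2, 27.1, 24.7 and 31.6 CPM in WT. WT 4 reached the levels of the libraries labelled Hdc-/-, and WT 1 was lowest. The log2 fold change was 0.31 (SE 0.13, 95% interval 0.04 to 0.59), and it did not pass over all genes (adjusted p = 0.200). Without WT 1 it was 0.21 (adjusted p = 0.314). Per3, a paralog with a lesser part in keeping the rhythm in mice, had 59.5, 57.1, 62.5 and 62.4 CPM in the libraries labelled Hdc-/-, against 48.9, 57.8, 58.4 and 59.6 CPM in WT. Outside WT 1 the groups lay within a few CPM of each other, and the log2 fold change of 0.10 (95% interval -0.07 to 0.28, adjusted p = 0.560) was within the spread between libraries. Without WT 1 it was 0.044 (adjusted p = 0.794).

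Cry1 and Cry2 encode the cryptochromes, the strongest repressors of CLOCK and BMAL1, and neither differed beyond the spread. Cry1 averaged 39.2 ± 1.69 CPM under the Hdc-/- label, against 40.9 ± 5.42 CPM in WT (SD, n = 4 each), and its log2 fold change was -0.06 (95% interval -0.28 to 0.16, adjusted p = 0.809). WT 1 had the lowest Cry1 level of all libraries, 33.1 CPM, while WT 2 and WT 3 had the highest, 44.2 and 44.9 CPM. Its log2 fold change was -0.15 without WT 1, -0.023 without WT 2, -0.013 without WT 3 and -0.037 without the unnumbered library. Cry2 averaged 28.6 ± 2.79 CPM under the Hdc-/- label, against 27.2 ± 3.32 CPM in WT, a log2 fold change of 0.07 (95% interval -0.17 to 0.31, adjusted p = 0.806). It was 0.16 without WT 3 and 0.12 without library 3 labelled Hdc-/-, but 0.038 without WT 1, 0.025 without WT 2 and 0.0057 without the unnumbered library. Cry2 shares 295 exon bases with D930015M05Rik on the other strand, which had at most 28 reads in any library.

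Arntl and Clock, which encode the activating pair, did not pass either. Arntl was at 29.4, 29.5, 28.4 and 33.8 CPM in the libraries labelled Hdc-/-, against 36.0, 30.4, 31.1 and 37.1 CPM in WT. Of the libraries labelled Hdc-/-, 3 lay below every WT library, and the unnumbered one lay between WT 3 and WT 1. For Arntl the log2 fold change was -0.15 (SE 0.10, 95% interval -0.37 to 0.07, adjusted p = 0.477), the lowest of the 10. Arntl shares 33 exon bases with Gm45355 on the other strand, which was not analysed here. Clock varied widely inside both groups, with 22.0, 29.8, 23.4 and 17.8 CPM in the libraries labelled Hdc-/-, against 19.3, 22.4, 26.9 and 15.9 CPM in WT. Its coefficient of variation was 21.4% in the libraries labelled Hdc-/- and 22.1% in WT. Counting error alone gives 4.998% at the gene's mean of 400.2 reads over all 8 libraries. The log2 fold change of Clock was 0.14 (95% interval -0.22 to 0.49, adjusted p = 0.721). It was -0.0055 without library 2 labelled Hdc-/-, 0.022 without WT 4, 0.25 without the unnumbered library and 0.28 without WT 3.

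Nr1d1 and Nr1d2 encode REV-ERB alpha and beta, nuclear receptors that bind heme and shut down Arntl. Nr1d1 was at 13.2, 12.04, 12.7 and 12.1 CPM in the libraries labelled Hdc-/-, against 6.04, 13.6, 11.1 and 7.996 CPM in WT. The libraries labelled Hdc-/- kept close together while WT spread widely, with WT 2 above all of them and WT 1 lowest. The log2 fold change was 0.37 (SE 0.20, 95% interval -0.06 to 0.80, adjusted p = 0.349), 0.20 without WT 1 (adjusted p = 0.573) and 0.58 without WT 2 (adjusted p = 0.141). Nr1d1 shares 263 exon bases with Thra, the thyroid hormone receptor alpha gene on the other strand (GENCODE M21). The libraries do not mark strand, so reads of the shared stretch cannot be told apart. For Thra the log2 fold change was 0.18 (SE 0.09, adjusted p = 0.317), and the value of Nr1d1 is uncertain for that reason. Nr1d2 was at 76.0, 66.2, 77.1 and 87.8 CPM in the libraries labelled Hdc-/-, against 61.1, 65.4, 63.3 and 70.7 CPM in WT. Only library 2 labelled Hdc-/- fell within the WT range, and the log2 fold change was 0.24 (SE 0.09, 95% interval 0.05 to 0.43, adjusted p = 0.158).

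Dbp encodes a transcription factor driven directly by CLOCK and BMAL1 and often used as a readout of the clock. It was at 11.8, 11.3, 10.2 and 10.6 CPM in the libraries labelled Hdc-/-, against 11.2, 8.41, 8.70 and 9.62 CPM in WT. WT 1 lay among the libraries labelled Hdc-/-, and the other WT libraries lay below them. The log2 fold change was 0.21 (SE 0.15, 95% interval -0.11 to 0.53, adjusted p = 0.502). Dbp shares 539 exon bases with Sphk2 on the other strand, whose log2 fold change was 0.17 (SE 0.13, adjusted p = 0.529), so the value of Dbp is uncertain in the same way.

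**Figure D2:**
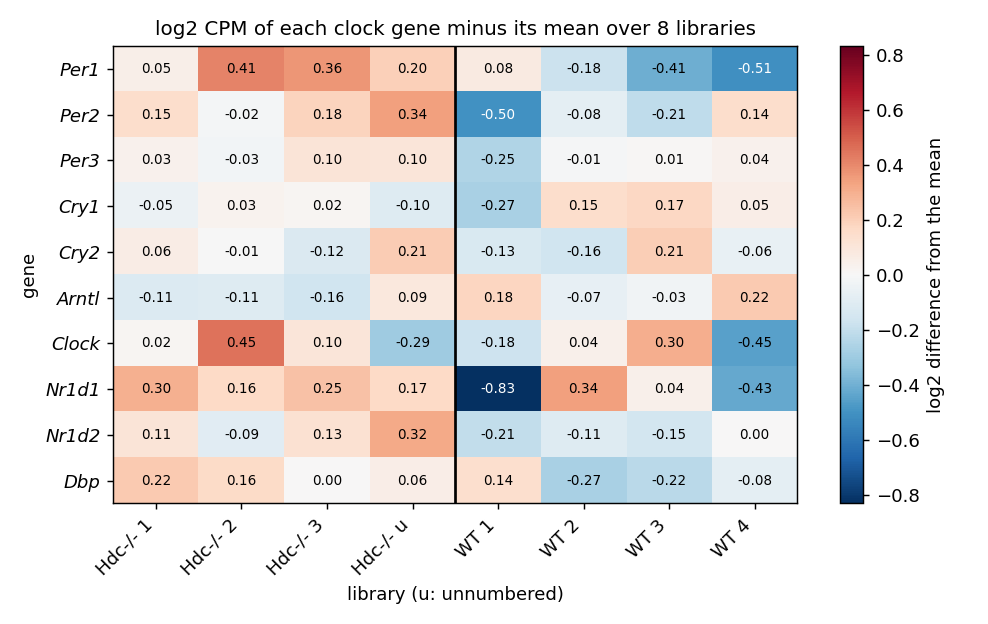
log2 CPM of each clock gene (rows) in each library (columns) minus the gene's mean over the 8 libraries, red for above and blue for below, with libraries labelled Hdc-/- left of the line and WT right. WT 1 stands out with -0.83 for Nr1d1 and -0.50 for Per2 beside 0.18 for Arntl, and WT 4 has -0.51 for Per1 beside 0.14 for Per2.

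The WT libraries differed from each other more than those labelled Hdc-/- did. The coefficient of variation was larger in WT for 9 of the 10 clock genes, all but Nr1d2, and for 64.1% of all genes tested. In WT it was largest for Nr1d1, at 34.6%. For Nr1d1 in the libraries labelled Hdc-/- it was 4.51%. This is below the 7.06% that counting error alone gives at the gene's mean of 200.5 reads over all 8 libraries. At the 208 to 261 reads of the libraries labelled Hdc-/- counting error is smaller. So close a set of 4 libraries may partly be luck of sampling. Within WT the genes did not move as a block: WT 1 was lowest for Per2, Per3, Cry1, Nr1d1 and Nr1d2 and highest for Per1 and Dbp, and WT 4 was lowest for Per1 and Clock and highest for Per2, Per3, Arntl and Nr1d2.

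Levels could be compared between genes only per length, as CPM per kilobase of merged exons in GENCODE M21 on GRCm38, which may differ from the annotation counted. On that scale Nr1d2 (13.1 ± 1.65, SD, n = 8) and Cry1 (11.99 ± 1.15) were the highest of the 10 and overlapped each other. Every library had more of each than of Per3, which followed at 6.07 ± 0.444. From Per3 down to Dbp (3.42 ± 0.413) each gene overlapped the next, in the order Per3, Per2, Per1, Cry2, Arntl, Nr1d1 and Dbp. Clock was the lowest, at 1.62 ± 0.335, with no library reaching the range of Dbp. Its place rests on its merged exon length, 13727 bases against 2993 for Dbp. In reads Clock stood above Dbp, with means of 400 and 185. These means are over all 8 libraries, and the order differed by group. Under the Hdc-/- label it was the same except that Nr1d1 (4.07 ± 0.183) stood above Arntl (4.03 ± 0.320). In WT, Cry1 (12.2 ± 1.62) stood above Nr1d2 (12.04 ± 0.756), and Per3 was followed by Arntl (4.47 ± 0.448), Per2 (4.42 ± 0.812), Cry2 (4.31 ± 0.525), Per1 (3.66 ± 0.674), Dbp (3.17 ± 0.420), Nr1d1 (3.15 ± 1.09) and Clock (SD, n = 4).

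Ratios between clock genes within a library do not depend on how libraries are scaled. The log2 ratio of Per1 to Per2 reads was -0.14 ± 0.27 in the libraries labelled Hdc-/- and -0.33 ± 0.51 in WT (SD, n = 4 each), and the groups overlapped. For Per1 to Per3 it was -1.06 ± 0.19 in the libraries labelled Hdc-/- and -1.46 ± 0.38 in WT, where WT 1, at -0.93, lay inside the range of the other group. The ratios of Cry1 to Cry2, Nr1d1 to Nr1d2 and Arntl to Clock overlapped too. A contrast of the genes that peak apart from Arntl was also taken, as the mean log2 CPM of Per1, Per2, Per3, Nr1d1, Nr1d2 and Dbp minus that of Arntl and Clock. It was 0.17, -0.09, 0.19 and 0.28 in the libraries labelled Hdc-/-, against -0.28, -0.06, -0.31 and -0.04 in WT. Library 2 labelled Hdc-/- lay within WT and the other 3 lay above it. The narrower contrast of Nr1d1, Nr1d2 and Dbp minus Arntl was -0.37, -0.51, -0.40 and -0.60 in the libraries labelled Hdc-/-, against -1.17, -0.63, -0.77 and -1.08 in WT, and these groups did not overlap. Both contrasts hold Nr1d1 and Dbp, whose values are uncertain because they share exon bases with Thra and Sphk2. They were built from genes picked for this account and have no test.

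**Figure D3:**
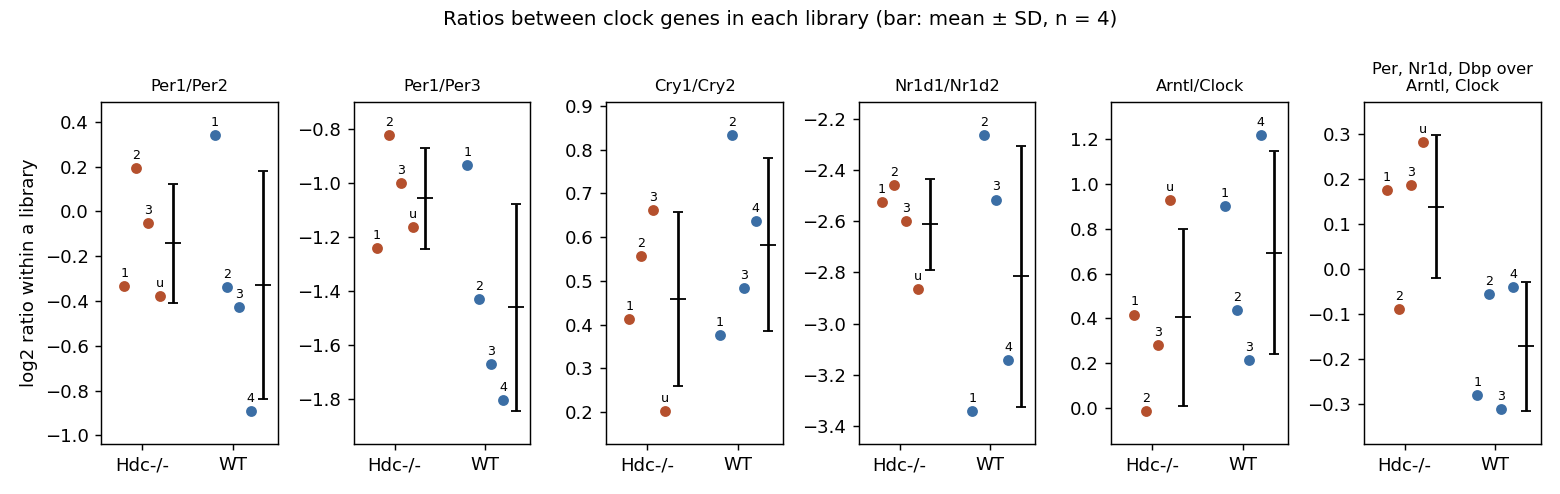
log2 ratios within each library (vertical axes, each with its own range) in the libraries labelled Hdc-/- (left, orange) and WT (right, blue), with library numbers, u for the unnumbered one, and mean ± SD bars. The first 5 panels are ratios of reads of 2 genes, and the last is the mean log2 CPM of Per, Nr1d and Dbp genes minus that of Arntl and Clock, with means of 0.14 in the libraries labelled Hdc-/- and -0.17 in WT.

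The rest of the clock machinery gave no call in edgeR. Of 21 further clock genes 18 were tested, and 0 passed in either direction, against 4.76% of all genes tested. At an unadjusted p under 0.05 there were 3 higher and 1 lower, against 18.7% of all genes in either direction. DESeq2 called 2 as higher, Rora among them, and limma-voom 1. No call was made without WT 1, 1 higher without WT 3 and 2 higher without WT 4. The median log2 fold change was 0.09. Rora encodes a receptor that activates Arntl at the elements where NR1D proteins repress it. It was at 13.2, 13.4, 12.02 and 16.5 CPM in the libraries labelled Hdc-/-, against 8.94, 10.2, 8.76 and 11.4 CPM in WT, without overlap between the groups (log2 fold change 0.49, SE 0.15, adjusted p = 0.0832). Tef, a D-box factor related to Dbp, averaged 78.7 ± 8.16 CPM under the Hdc-/- label, against 64.5 ± 9.16 CPM in WT (log2 fold change 0.29, SE 0.10, adjusted p = 0.132). The 1 lower gene, named after its value was seen, was the repressor gene Bhlhe40 (log2 fold change -0.44, SE 0.20, adjusted p = 0.237). The untested genes were Arntl2, with at most 10 reads in a library, Rorb, with at most 3, and Bhlhe41, with 0 in all 8.

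**Figure D4:**
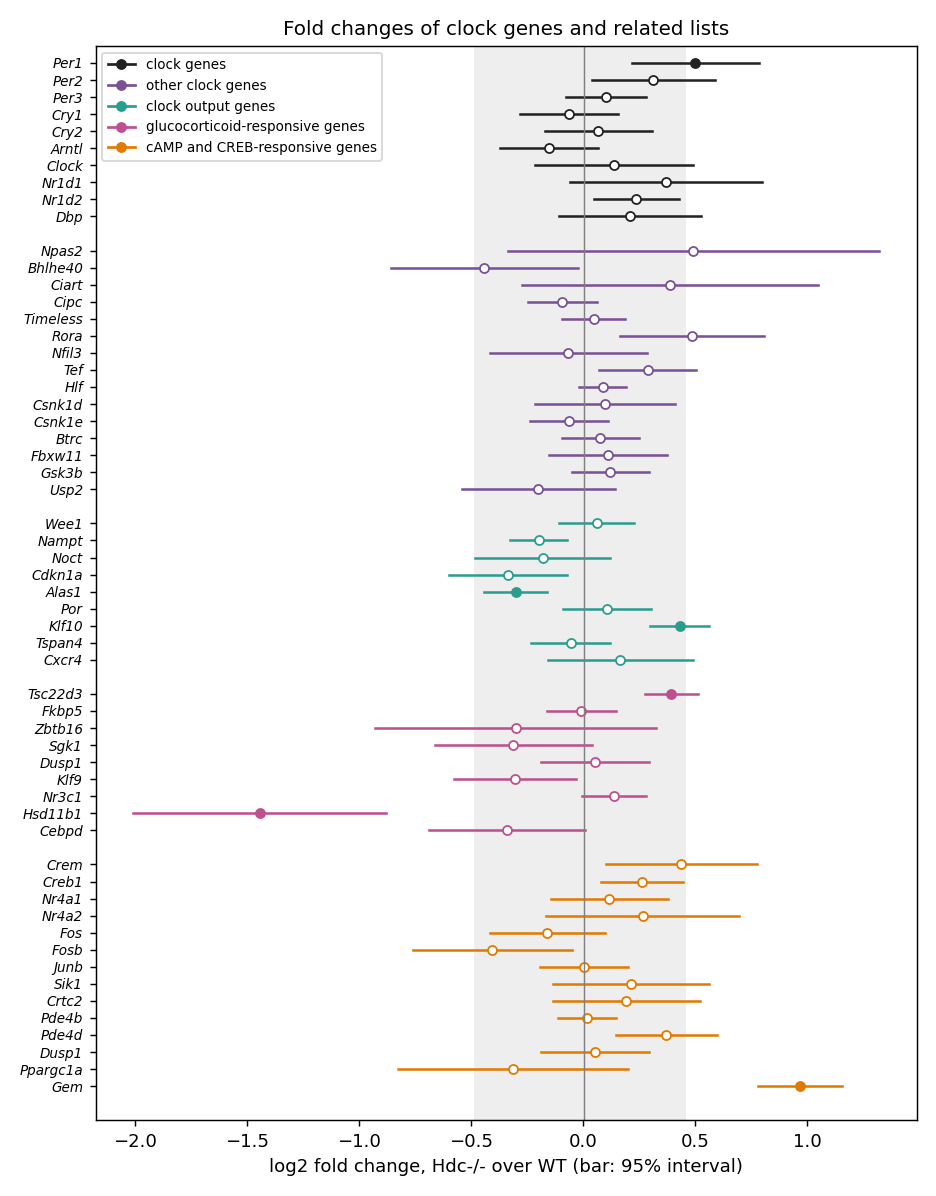
log2 fold change of the libraries labelled Hdc-/- over WT (horizontal axis) with its 95% interval for the clock genes and the 4 related lists, filled where the adjusted p was under 0.05, for the genes reported here with a mean of at least 2 CPM in either group. The grey line is the median of all genes tested and the grey band spans their 5th to 95th percentile, -0.49 to 0.46. Among clock genes only Per1 is filled, and Gem and Hsd11b1 lie farthest out.

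Lists of genes tied to the same signals as Per1 were read beside it. The first held 16 genes tied to cAMP and the factor CREB, Per1 left out. Not all are responding genes, since Creb1 and the coactivator gene Crtc2 encode parts of the signalling itself. Of the 15 tested, 1 was higher and 0 were lower in edgeR (4 higher and 1 lower at an unadjusted p under 0.05, 2 higher and 0 lower in DESeq2, and 1 higher and 0 lower in limma-voom). Of all genes tested, 2.05% were higher and 2.71% lower in edgeR, and 18.7% had an unadjusted p under 0.05. Without WT 1, 3 genes of the list were higher. The median log2 fold change of the list was 0.19, with 12 genes above 0 and 3 below, against 50.9% of all genes above 0. The call was Gem, a small GTPase gene, at 63.5, 63.8, 64.7 and 62.3 CPM in the libraries labelled Hdc-/-, against 35.2, 33.4, 33.5 and 28.1 CPM in WT. Those groups lay far apart (log2 fold change 0.97, SE 0.09, adjusted p = 2.37e-06). The next genes did not pass: the log2 fold change was 0.37 for the phosphodiesterase gene Pde4d (adjusted p = 0.0574), 0.26 for Creb1, which encodes CREB itself (adjusted p = 0.105), and 0.44 for Crem, a related factor (adjusted p = 0.137).

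Of 12 genes that glucocorticoids are known to regulate, Per1 left out, 11 were tested, with 1 higher, 1 lower and a median log2 fold change of -0.30. The shares of all genes tested were 2.05% higher and 2.71% lower. Tsc22d3, which encodes the glucocorticoid-induced leucine zipper GILZ, was at 523, 562, 616 and 580.0 CPM in the libraries labelled Hdc-/-, against 428, 440.2, 433 and 435 CPM in WT. The groups did not overlap, and the log2 fold change was 0.39 (SE 0.06, adjusted p = 0.000266). Hsd11b1, the enzyme that regenerates active glucocorticoid inside cells, was lower, at 2.33, 1.99, 2.77 and 2.09 CPM in the libraries labelled Hdc-/-, against 7.83, 7.92, 3.77 and 5.59 CPM in WT (log2 fold change -1.45, SE 0.27, adjusted p = 0.00325). Other members did not pass, among them Klf9 at -0.30 (adjusted p = 0.214), Cebpd at -0.34 (adjusted p = 0.278) and the receptor gene Nr3c1 at 0.14 (adjusted p = 0.290). The untested genes of these 2 lists were Nr4a3, with at most 4 reads in a library, and Mt2, with at most 8.

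Of 9 genes whose rhythm is known to be set by the clock in other mouse tissues, 1 was higher and 1 lower. Among all genes tested 2.05% were higher and 2.71% lower. The median log2 fold change of the 9 was -0.06. Klf10, a transcription factor gene under clock control in liver, was at 330, 343, 372 and 362 CPM in the libraries labelled Hdc-/-, against 236, 264, 272 and 270.0 CPM in WT. It rose by 0.43 on the log2 scale (SE 0.06, adjusted p = 0.00029), with no overlap. Alas1, the housekeeping first enzyme of heme synthesis, was at 83.2, 81.1, 82.9 and 85.4 CPM in the libraries labelled Hdc-/-, against 106, 99.3, 105 and 99.1 CPM in WT, again with no overlap (log2 fold change -0.30, SE 0.07, adjusted p = 0.0134). Its call was lost without library 2 labelled Hdc-/- (adjusted p = 0.0543), and the count of lower genes was 2 without WT 1. The log2 fold change of Nampt, the enzyme of NAD salvage, was -0.20 (adjusted p = 0.0722), that of the cell cycle inhibitor gene Cdkn1a -0.33 (adjusted p = 0.151), and that of Noct, a rhythmic phosphatase gene listed in the table as Ccrn4l, -0.18 (adjusted p = 0.547).

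Markers of some other cell types also differed between the groups, chiefly those of red cells, neutrophils and B cells. For all genes tested, the shares in edgeR were 2.05% higher, 2.71% lower and 18.7% at an unadjusted p under 0.05. Of 6 red cell markers, 6 were higher, and their summed level was 462 to 503 CPM in the libraries labelled Hdc-/-, against 131 to 143 CPM in WT. Of 10 neutrophil markers 9 were lower, with sums of 780 to 1411 CPM in the libraries labelled Hdc-/-, against 2606 to 4015 CPM in WT, and of 7 tested B cell markers 6 were lower, with sums of 149 to 162 CPM in the libraries labelled Hdc-/-, against 230 to 305 CPM in WT. Of 8 macrophage markers 0 passed in edgeR and limma-voom (6 higher at an unadjusted p under 0.05) and 3 were higher in DESeq2, with sums of 83.6 to 93.7 CPM in the libraries labelled Hdc-/-, against 50.8 to 70.0 CPM in WT. Of 2 tested T and NK cell markers 1 was lower. Sums over all 5 listed were 260.5 to 277 CPM in the libraries labelled Hdc-/-, against 326 to 414 CPM in WT. That 1 marker made up nearly all of each sum. The other tested marker did not pass in edgeR (log2 fold change 0.13, adjusted p = 0.886). Cd3d, Cd3e and Cd8a had at most 10 reads in any library and 0 reads in at least 1 library. Of the 10 stem and progenitor markers 2 were higher and 1 lower, with sums of 5564 to 5797 CPM in the libraries labelled Hdc-/-, against 4548 to 5446 CPM in WT. Fewer cells of a type and less RNA per cell cannot be told apart in such bulk samples, and the part of these cell types in the values of Per1 and the other genes named here was not tested.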

How the data were processed

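RNA of 8 sorted samples, 4 labelled Hdc-/- and 4 WT, was amplified by SMARTer chemistry and turned into Nextera XT libraries, without strand information, per the labels' protocols. The authors deposited raw read counts per gene symbol. The submitters' processing notes name build mm9 and the tools HTSeq 0.6.1, TopHat2 2.0.4, Bowtie2 and bcl2fastq 1.8.4. Annotation, strand setting and counting mode were not given in the sources used here. Of 23284 entries, 2 labelled with a number were left out (at most 0.0320% of reads). Columns were matched to titles by number, except 1 of the group labelled Hdc-/- with another number, used without one. Columns not used numbered 0.

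The main test was edgeR 4.0.16 under R 4.3.3 (glmQLFit with robust dispersion, glmQLFTest, two-sided, TMM scaling, filterByExpr with a minimum count of 10 and total of 15), and p-values were Benjamini-Hochberg adjusted over all 13005 genes, with 0.05 as threshold. SE is the log2 fold change over the square root of F. CPM are TMM-scaled over tested genes. The edgeR fit was tried on simulated counts, drawn with the dispersions it estimated from these data, and the other steps were not part of that trial. Alternatives were DESeq2 1.42.0, limma-voom (limma 3.58.1), DESeq2 size factors, 2 other filters, non-robust dispersion, the replicate number as a block, and leaving out each library. The genes and lists were chosen with earlier results of these data known. Named are the 10 clock genes, Hdc, each list's genes past the threshold and its next 3 by p; some genes of the lists are counted with their list but not reported here by name. Counting error covers sampling of reads only, since reads carry no molecular identifiers.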

Additional observations from a re-analysis of the deposited data

Results flagged for a closer look

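Outlying libraries were looked for in 28 named genes, as a lowest or highest library of a group of 4 that stood far from the rest, and 3 of 56 groups had one. Chance alone gives about 5% of such groups. The clock genes had none. WT 3 stood above the other WT libraries for Cdkn1a, at 22.5 CPM, and WT 2 for Noct, listed as Ccrn4l, at 20.9 CPM. The unnumbered library stood above the others labelled Hdc-/- for Cebpd, at 7.19 CPM. None of these 3 genes passed the test between groups.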

How the results depend on the processing

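Fold changes of the genes that the naming rule gives and counts of calls in the clock gene list and its 4 related lists were recomputed under 16 alternatives. The contrast of Per, Nr1d and Dbp genes with Arntl and Clock had 9. Its difference between groups was 0.31 in all libraries and 0.26 to 0.39 when single libraries were left out. The remaining alternative was the narrower contrast of Nr1d1, Nr1d2 and Dbp minus Arntl, with a difference of 0.44. Marker counts were recomputed with DESeq2 and limma-voom alone, and read ratios, coefficients of variation and levels per length were not recomputed. The log2 fold change of Per1 stayed above 0 in all, from 0.42 to 0.62, but its adjusted p ran from 0.00451 to 0.234 and it passed in 8 of the 16. The count of higher clock genes was 1 in the main test, 0 to 1 when single libraries were left out, and 0 with the replicate block and 0 in the same 6 numbered libraries without the block, an alternative chosen after seeing the data. Counts of further clock genes called higher were 1 with no low-count filter, 2 with DESeq2, 1 with limma-voom and 0 to 2 without single libraries. Counts of lower clock output genes were 2 with DESeq2, 0 with the replicate block, 0 in the 6 numbered libraries without it and 0 to 2 without single libraries. Counts of higher genes in the cAMP and CREB list were 2 with DESeq2 and 1 to 3 without single libraries. Signs turned for Clock, at -0.0055 without library 2 labelled Hdc-/- (up to 0.28 without other single libraries), and for Cry2, at -0.0050 in the 6 numbered libraries without the block, neither of which passed in any setting. Gem, Klf10, Tsc22d3 and Hsd11b1 passed in all 16. Whether equal numbers pair the samples is not known here. Deviations of the 3 same-numbered pairs had correlations of -0.061 to -0.00033. So few pairs cannot show whether such samples were collected or processed together. With the replicate block 123 genes were higher and 189 lower over all genes, against 134 and 211 in the same 6 libraries without it and 267 and 352 in all 8. The causes were not tested beyond the loss of samples that these settings bring. DESeq2 size factors moved the median of all genes by 0.0013 on the log2 scale. Dbp and Nr1d1, with means of 185 and 200.5 reads, have the largest counting error of the clock genes, 7.36% and 7.06%.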

Other observations

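WT 1 also had the lowest level of 3 further genes of the lists above, which were picked after their values were seen. The casein kinase gene Csnk1d, whose product marks PER proteins for degradation, was at 262, 233, 272 and 258 CPM in the libraries labelled Hdc-/-, against 157, 266, 261 and 274 CPM in WT 1 to 4. Fbxw11, a ubiquitin ligase subunit, was at 138, 107, 127 and 123 CPM in the libraries labelled Hdc-/- and at 81.2, 125, 117 and 135 CPM in WT. Crtc2, a coactivator of CREB, was at 75.7, 65.7, 74.1 and 65.0 CPM in the libraries labelled Hdc-/- and at 38.7, 72.4, 73.8 and 60.6 CPM in WT. None of the 3 passed between the groups in edgeR, where their log2 fold changes were 0.10, 0.11 and 0.19 (adjusted p = 0.775, 0.691 and 0.555).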
